A study of Mus musculus with 10 samples.

Results

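The chromatin around 6 transcriptional regulators of lymphocytes, Ikzf1, Ikzf2, Ikzf3, Ikzf4, Bach2 and Bcl6, was compared between sorted iNKT1 and iNKT2 thymocytes of the strains BALB/c and SKG. A region of the accessibility table belonged to a gene when it overlapped the gene body or lay within 50 kb of the transcription start. This rule gave 215 of the 94823 regions in the table: 57 at Ikzf1, 35 at Ikzf2, 40 at Ikzf3, 15 at Ikzf4, 51 at Bach2 and 17 at Bcl6. Of these, 171 overlapped the body of their gene, and by position 148 were intronic, 34 exonic and 33 intergenic. At Ikzf3, Ikzf4 and Bcl6, 6 of the regions also held the start of another protein-coding gene (Zpbp2 and Ormdl3, then Rps26, Suox and Rab5b, and Gm37419), so that their signal cannot be given to the member alone.

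The series profiled open chromatin with ATAC-seq, an assay that counts where a transposase has cut and tagged accessible DNA. Invariant natural killer T (iNKT) cells are T cells with a semi-invariant receptor for lipid antigens, which mature in the thymus into subsets named for their cytokines. Each library was made from sorted thymic cells, iNKT1 cells as CD27+ CD122+ and iNKT2 cells as CD27+ CD122-. There were 2 libraries of BALB/c iNKT1, 2 of SKG iNKT1, 3 of BALB/c iNKT2 and 3 of SKG iNKT2 cells. SKG mice carry a hypomorphic mutation of Zap70, a kinase that relays signals from the T cell receptor, on the BALB/c background, so BALB/c is their wild-type control, and no group received a treatment. The labels give no age and do not say which libraries came from separate mice, so the p-values measure the spread between these libraries, which may be technical. A total of 14988590 to 36342635 insertions was counted per library over all regions.

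The 4 Ikaros family genes encode zinc finger proteins that bind DNA as dimers and recruit chromatin remodelling and deacetylase complexes. Ikzf1 encodes Ikaros, needed for lymphoid development, Ikzf3 encodes Aiolos, Ikzf2 encodes Helios, which is induced in thymocytes that receive strong receptor signals, and Ikzf4 encodes Eos, best known from regulatory T cells. Bach2 is a leucine zipper repressor that pairs with small Maf proteins, can occupy sites used by AP-1, and restrains effector programmes in T cells. Bcl6 is a repressor related to PLZF, the factor that directs iNKT development, and is known for its role in follicular helper T cells and germinal centre B cells.

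The 300 bases at the centre of 8 regions are shown because these regions carried the differences described for each gene. For each member this is the region with the smallest adjusted p among those called in any comparison, outside transcription starts and untranslated regions, and for Ikzf2 and Bach2 the region with the largest fall in SKG iNKT2 cells was added after its values were seen. The letters are those of the GRCm38 reference of RefSeq, the plus strand, and not of BALB/c DNA, and distances count from the gene's annotated start to the region's centre. Capitals mark the motif matches listed after the sequences, on either strand.
Ikzf1 intron, 31145 bp downstream, chr11:11715999-11716298: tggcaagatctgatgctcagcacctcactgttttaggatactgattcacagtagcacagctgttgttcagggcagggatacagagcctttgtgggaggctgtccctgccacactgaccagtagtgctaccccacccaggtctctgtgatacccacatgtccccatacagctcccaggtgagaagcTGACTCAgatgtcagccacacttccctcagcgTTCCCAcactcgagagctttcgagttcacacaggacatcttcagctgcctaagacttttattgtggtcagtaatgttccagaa
Ikzf2 intron, 131444 bp downstream, chr1:69555652-69555951: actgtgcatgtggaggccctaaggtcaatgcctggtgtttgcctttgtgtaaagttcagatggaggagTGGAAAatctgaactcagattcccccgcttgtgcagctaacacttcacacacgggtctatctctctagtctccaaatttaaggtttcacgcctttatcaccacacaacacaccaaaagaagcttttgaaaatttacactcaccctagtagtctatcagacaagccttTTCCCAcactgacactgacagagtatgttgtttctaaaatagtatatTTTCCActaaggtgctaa
Ikzf2 intergenic, 16622 bp upstream, chr1:69703718-69704017: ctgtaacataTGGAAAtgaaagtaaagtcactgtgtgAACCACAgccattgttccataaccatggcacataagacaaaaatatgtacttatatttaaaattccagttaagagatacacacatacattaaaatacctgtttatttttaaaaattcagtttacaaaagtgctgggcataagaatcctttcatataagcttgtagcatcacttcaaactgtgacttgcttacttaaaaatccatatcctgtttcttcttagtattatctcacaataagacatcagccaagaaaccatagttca
Ikzf3 intron, 35741 bp downstream, chr11:98510141-98510440: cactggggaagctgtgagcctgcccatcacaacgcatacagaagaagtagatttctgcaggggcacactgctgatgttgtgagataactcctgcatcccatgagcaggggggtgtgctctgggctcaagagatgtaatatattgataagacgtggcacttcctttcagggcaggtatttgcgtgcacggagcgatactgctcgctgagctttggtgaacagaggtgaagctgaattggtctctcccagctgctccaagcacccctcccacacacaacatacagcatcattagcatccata
Ikzf4 intergenic, 17835 bp upstream, chr10:128663677-128663976: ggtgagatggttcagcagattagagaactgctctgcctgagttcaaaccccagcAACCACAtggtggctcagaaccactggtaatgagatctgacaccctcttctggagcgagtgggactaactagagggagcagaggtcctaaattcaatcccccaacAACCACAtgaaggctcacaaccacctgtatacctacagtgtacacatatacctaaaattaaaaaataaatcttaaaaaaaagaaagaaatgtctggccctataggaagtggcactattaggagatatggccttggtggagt
Bach2 intergenic, 21605 bp upstream, chr4:32217050-32217349: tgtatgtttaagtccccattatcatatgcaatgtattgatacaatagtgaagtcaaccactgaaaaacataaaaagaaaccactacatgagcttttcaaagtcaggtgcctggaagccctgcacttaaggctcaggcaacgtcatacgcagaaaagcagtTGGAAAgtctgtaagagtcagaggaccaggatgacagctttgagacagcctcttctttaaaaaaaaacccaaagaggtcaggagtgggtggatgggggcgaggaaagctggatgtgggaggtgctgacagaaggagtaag
Bach2 intron, 187975 bp downstream, chr4:32426630-32426929: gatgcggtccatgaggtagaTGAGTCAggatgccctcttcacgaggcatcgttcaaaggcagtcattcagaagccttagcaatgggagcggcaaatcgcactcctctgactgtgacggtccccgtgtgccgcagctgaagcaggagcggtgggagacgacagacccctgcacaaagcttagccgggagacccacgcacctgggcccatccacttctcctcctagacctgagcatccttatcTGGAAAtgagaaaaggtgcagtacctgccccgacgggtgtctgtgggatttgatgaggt
Bcl6 intergenic, 8547 bp upstream, chr16:23997250-23997549: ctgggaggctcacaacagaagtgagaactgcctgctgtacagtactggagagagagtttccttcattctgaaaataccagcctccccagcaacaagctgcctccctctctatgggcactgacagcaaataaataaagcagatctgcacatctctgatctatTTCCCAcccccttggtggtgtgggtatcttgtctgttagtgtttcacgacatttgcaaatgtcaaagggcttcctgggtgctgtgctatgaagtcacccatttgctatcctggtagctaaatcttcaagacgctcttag

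Letters of 8 motifs were searched on both strands in the central 300 bases of every region. They were NFAT (TGGAAA), Egr (GTGGGCG), Ikaros (TGGGAA), Bach and AP-1 (TGACTCA), Bcl6 (TTCCTNGAA), T-box (AGGTGTGA), Runx (TGTGGTT) and Tcf (CTTTGAT). Of the 215 member regions, 22.3% held the NFAT letters, against 23.4% of all regions. The Ikaros letters stood in 24.2% of the member regions and 21.3% of all, the Bach and AP-1 letters in 8.84% and 7.61%, and the Bcl6 letters in 2.33% and 1.77%. The shares for Runx were 13.5% and 13.2%, for Tcf 7.44% and 5.74%, for Egr 1.86% and 4.72%, and for T-box 1.86% and 1.91%. The Egr and T-box shares each rest on 4 member regions, and no difference between these shares was tested. Among the sequences shown, the Ikzf1 intron held 1 Bach and AP-1 match and 1 Ikaros match, and the Ikzf2 intron held 2 NFAT matches and 1 Ikaros match. The upstream Ikzf2 region and the Bach2 intron each held 1 NFAT match, the former beside a Runx match and the latter beside a Bach and AP-1 match. The Ikzf4 region held 2 Runx matches, the upstream Bach2 region 1 NFAT match, the Bcl6 region 1 Ikaros match, and the Ikzf3 region none of the letters searched. A match here describes the letters only and was not tested as a binding site.

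The sort was checked on accessibility at the starts of marker genes, given as CPM, the region's insertions relative to the library total after TMM scaling, summed per list. The iNKT1 list (Tbx21, Il2rb, Cxcr3 and Ifng, with no region at Klrb1c) summed to 235 to 270 CPM in the iNKT1 libraries and 55.5 to 82.6 CPM in the iNKT2 libraries. The iNKT2 list (Zbtb16, Il4, Il17rb, Gata3 and Ccr7) separated the libraries less, with 102 to 120 CPM in iNKT1 and 121 to 189 CPM in iNKT2, and the ranges of Zbtb16, Il4 and Gata3 overlapped between subsets. In BALB/c the start of Zbtb16 went against its list, with 37.1, 25.2 and 28.8 CPM in iNKT2 below the 44.3 and 39.5 CPM in iNKT1. Within iNKT2 this list was also higher in SKG, at 147 to 189 CPM against 121 to 134 CPM in BALB/c, and its part in the differences between genotypes was not tested. The iNKT17 genes Il23r and Ccr6 summed to 0.220 to 0.835 CPM in iNKT1 and 5.21 to 9.32 CPM in iNKT2. These iNKT17 genes thus moved with the iNKT2 sort, and their part in the differences between subsets was not tested. Of the markers of double-positive thymocytes only Cd8a had a region, at 0.0412 to 1.93 CPM, neither Pax5 nor Cd79a of B cells had one, and of the myeloid list only Spi1 did, at 23.4 to 29.3 CPM in iNKT1 and 9.60 to 14.5 CPM in iNKT2. Correlations of log2 levels between libraries were 0.952 to 0.977 within groups and 0.635 to 0.946 between groups. Within iNKT2, replicate 1 was less like replicates 2 and 3 than these were like each other, in both genotypes. It correlated with them at 0.955 and 0.952 in BALB/c and in SKG. Between replicates 2 and 3 the correlation was 0.976 in BALB/c and 0.962 in SKG. The iNKT1 list of replicate 1 was also higher, at 68.4 CPM against 56.9 and 55.5 CPM in BALB/c iNKT2. In SKG iNKT2 it was 82.6 CPM against 55.9 and 59.0 CPM.

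Summed over all regions of a locus, the genes differed in which group stood apart. Ikzf1 summed to 624 and 591 CPM in BALB/c iNKT1 and 619 and 639 CPM in SKG iNKT1, and to 405, 413 and 410 CPM in BALB/c iNKT2 and 452, 459 and 465 CPM in SKG iNKT2. The Ikzf1 locus was therefore lower in iNKT2 cells of both genotypes, at 0.674 times the iNKT1 mean in BALB/c and 0.730 times in SKG. Ikzf2 summed to 343 and 360 CPM in BALB/c iNKT1 and 304, 332 and 340 CPM in BALB/c iNKT2, but to 256 and 242 CPM in SKG iNKT1 and 171, 245 and 245 CPM in SKG iNKT2. The Ikzf2 locus thus followed the genotype, with SKG at 0.707 times BALB/c in iNKT1 and 0.677 times in iNKT2, and the SKG and BALB/c libraries did not overlap in either subset. In bulk libraries, fewer cells with an open region and less opening per cell cannot be told apart. Ikzf3 summed to 384 and 365 CPM in BALB/c iNKT1, 348 and 342 CPM in SKG iNKT1, 258, 240 and 217 CPM in BALB/c iNKT2, and 405, 302 and 328 CPM in SKG iNKT2. The low group at Ikzf3 was BALB/c iNKT2 alone, and SKG iNKT2 stood 1.45 times above it. SKG iNKT2 replicate 1 stood apart from the other SKG iNKT2 libraries at Ikzf2 (171 CPM) and at Ikzf3 (405 CPM).

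Ikzf4 summed to 226 and 229 CPM in BALB/c iNKT1, 265 and 245 CPM in SKG iNKT1, 212, 238 and 232 CPM in BALB/c iNKT2 and 276, 275 and 291 CPM in SKG iNKT2. At Ikzf4 the SKG libraries were above the BALB/c libraries in both subsets (1.12 times in iNKT1 and 1.23 times in iNKT2), and the BALB/c subsets overlapped. Only 3 of the 15 Ikzf4 regions overlapped the gene body, so the Ikzf4 sums take in much of its surroundings. Bach2 was highest in BALB/c iNKT1 at 734 and 824 CPM, followed by 572 and 605 CPM in SKG iNKT1, 484, 590 and 564 CPM in BALB/c iNKT2 and 555, 587 and 640 CPM in SKG iNKT2. The last 3 groups overlapped at Bach2. Bcl6 summed to 256 and 248 CPM in BALB/c iNKT1 and 263 and 243 CPM in SKG iNKT1, which overlapped, to 143, 160 and 153 CPM in BALB/c iNKT2 and to 195, 222 and 225 CPM in SKG iNKT2. Bcl6 shared with Ikzf3 the low BALB/c iNKT2 level, with SKG iNKT2 1.41 times higher. This low level was not particular to them. By the same window rule, the related genes Bcl6b and Ikzf5 were also lowest in BALB/c iNKT2, with means of 84.5 and 103 CPM. Their SKG iNKT2 means were 111 and 133 CPM, while the related Bach1 was lowest in BALB/c iNKT1 (274 CPM). Per kilobase of region the BALB/c iNKT1 means were 34.0 CPM at Ikzf4, 31.9 at Bach2, 29.2 at Bcl6, 23.7 at Ikzf1, 22.1 at Ikzf2 and 21.1 at Ikzf3. The sums were not tested. With library totals in place of TMM scaling, which moved the median log2 difference of all regions between subsets from 0.06 to 0.34 in BALB/c and from 0.14 to 0.32 in SKG, the SKG iNKT2 libraries overlapped BALB/c iNKT2 at Ikzf1 and at Ikzf3 and the direction of Ikzf2 between subsets turned in BALB/c (1.12 times). Under that scaling the overlapping BALB/c subsets of Ikzf4 separated, with iNKT2 at 1.21 times iNKT1, and the overlapping genotypes turned at Bach2 in iNKT2 (from 1.09 to 0.993 times) and at Bcl6 in iNKT1 (from 1.01 to 0.983 times). With DESeq2 size factors the ratios between SKG subsets turned at Ikzf3 (from 1.00 to 0.966 times) and Bach2 (from 1.01 to 0.976 times), whose libraries overlapped.

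**Figure D1:**
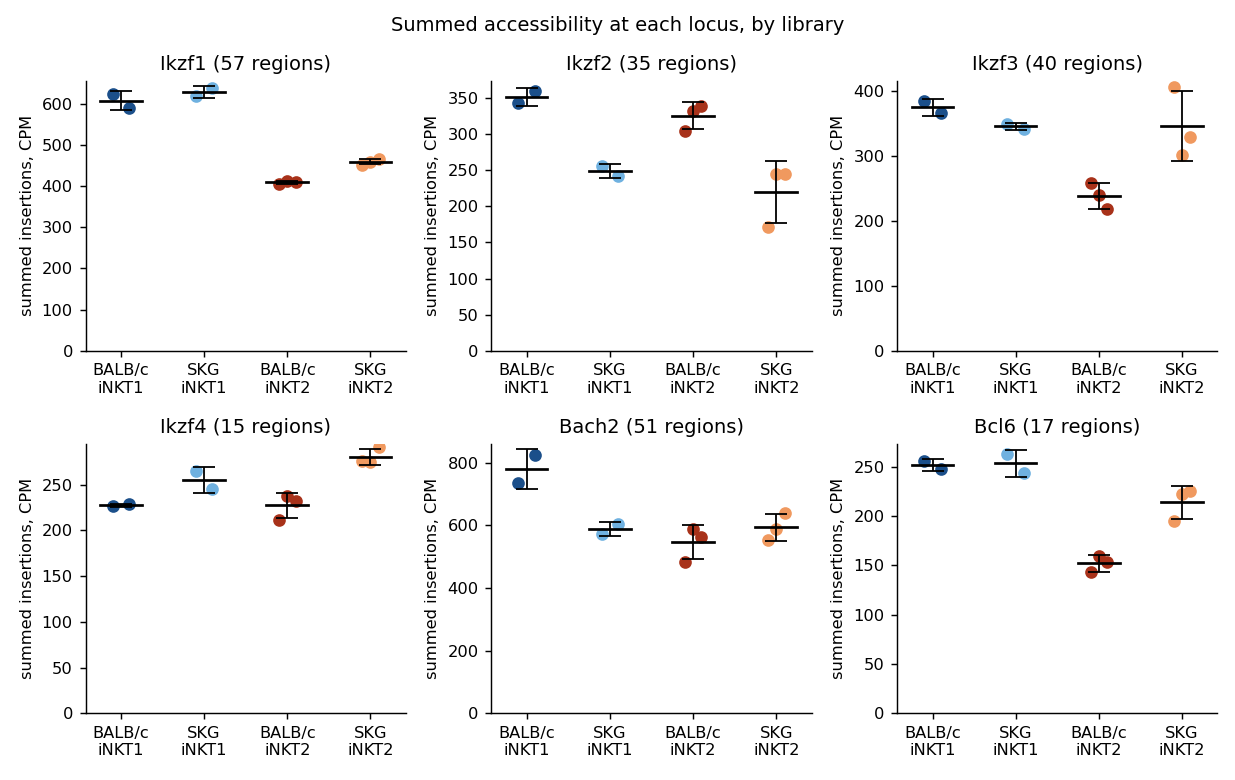
Summed accessibility of the 6 loci (y axis, CPM after TMM scaling) in each library, by group (x axis). Points are libraries, long bars the mean and capped bars the SD (n = 2 for the iNKT1 groups, n = 3 for the iNKT2 groups). Ikzf2 is lower in SKG than in BALB/c in both subsets, and Ikzf3 and Bcl6 are lowest in BALB/c iNKT2.

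Each region was tested with edgeR's quasi-likelihood test over all 94823 regions, and every adjusted p given is its Benjamini-Hochberg value. A region was called when the adjusted p was under 0.01 and the change at least 4-fold. All calls among the members were of regions whose groups did not overlap. A looser count with no limit on the size of the change is given beside it, since most differences at these loci were smaller. Log2 changes are given with their standard error.

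In BALB/c mice, 22 member regions were called higher in iNKT2 than in iNKT1 (10.2% of 215, against 15.5% of all regions) and 18 lower (8.37% against 6.36%). Bach2 held 12 of the higher regions and 5 of the lower, Ikzf3 3 and 9, Ikzf2 4 and 0, Bcl6 3 and 0, Ikzf1 0 and 4, and Ikzf4 0 and 0. Which direction held more calls turned with the scaling, since library totals gave 28 higher and 12 lower and limma after quantile normalisation 12 higher and 27 lower. Without the size limit, 41 were higher (19.1% against 25.7%) and 69 lower (32.1% against 23.4%), the latter led by 19 at Ikzf1, 18 at Bach2 and 17 at Ikzf3, while library totals gave 45 higher and 47 lower. In SKG mice, 21 were called higher (9.77% against 10.2% of all regions) and 6 lower (2.79% against 6.96%), and without the size limit 36 were higher (16.7% against 18.4%) and 39 lower (18.1% against 17.6%). Limma called 13 higher and 6 lower in SKG, limma after quantile normalisation 9 and 8, and without the size limit library totals gave 47 higher and 25 lower. The shares in SKG were near those of all regions apart from the fewer large falls. The 12 regions called higher in both genotypes were 54.5% of the BALB/c list and 57.1% of the SKG list, against 49.3% and 75.2% over all regions, and 9 of them were at Bach2. The 4 called lower in both, 2 at Ikzf1 and 2 at Ikzf3, were 22.2% of the BALB/c list and 66.7% of the SKG list, against 76.0% and 69.5% over all regions. None was called in opposite directions, as were 4 of all regions. The count of 36 fell to 21 without SKG iNKT1 replicate 1 and to 23 without SKG iNKT1 replicate 2, and the count of 39 fell to 25 without the latter.

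At Ikzf1 (chr11:11685003-11772926, plus strand) most of the regions that differed between subsets lay in introns, as did 47 of all its 57 regions. The intronic region 31145 bp downstream of the start (chr11:11715970-11716327), whose sequence is the Ikzf1 entry above, gave 30.3 and 28.3 CPM in BALB/c iNKT1 and 31.9 and 30.4 CPM in SKG iNKT1. It gave 3.95, 3.91 and 3.92 CPM in BALB/c iNKT2 and 4.31, 2.62 and 2.83 CPM in SKG iNKT2. All iNKT2 libraries were far below all iNKT1 libraries, while the genotypes were close within each subset. The change was -2.90 ± 0.19 in BALB/c (adjusted p = 1.5e-08) and -3.23 ± 0.19 in SKG (adjusted p = 1.4e-08), and the call held under every alternative tried. Further along, 78634 bp downstream, a region fell from 15.6 and 14.5 CPM to 3.80, 2.27 and 3.42 CPM in BALB/c (-2.26 ± 0.28, adjusted p = 5.3e-06) and from 14.7 and 19.5 CPM to 3.95, 4.27 and 1.75 CPM in SKG (-2.32 ± 0.28, adjusted p = 7.3e-06). In BALB/c that fall was just short of 4-fold with library totals (-1.97) and without BALB/c iNKT2 replicate 2 (-1.99). The intronic region at 66323 bp fell in BALB/c by 2.32 on the log2 scale (adjusted p = 1.4e-07) and in SKG by 1.96 (adjusted p = 1.2e-06), just short of 4-fold.

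The Ikzf1 start itself was covered by a small region with 4.76 to 7.77 CPM in all libraries, which did not pass in any comparison (BALB/c iNKT2 against iNKT1, -0.55 ± 0.18, adjusted p = 0.013). The wide region just behind it, 861 bp downstream, gave 51.0 and 41.7 CPM in BALB/c iNKT1, 57.2 and 49.7 CPM in SKG iNKT1, 33.2, 30.1 and 36.6 CPM in BALB/c iNKT2 and 37.1, 39.2 and 35.3 CPM in SKG iNKT2. It was lower in iNKT2 by less than 4-fold in BALB/c (-0.48 ± 0.14, adjusted p = 0.0066) and in SKG (-0.52 ± 0.14, adjusted p = 0.0056), and it also holds the start of Gm11999. Upstream of the gene, 16931 bp away, a weak region went the other way in SKG, from 0.899 and 1.03 CPM to 3.54, 3.81 and 4.79 CPM (2.05 ± 0.34, adjusted p = 1.2e-04), and a weaker region at 44055 bp fell from 1.54 and 2.37 CPM to 0.446, 0.184 and 0.135 CPM (-2.76 ± 0.48, adjusted p = 2.0e-04), which a filter on low counts removed. The rise at 16931 bp was under 4-fold with limma (1.99), with limma after quantile normalisation (1.67) and without SKG iNKT1 replicate 1 (1.96) or SKG iNKT2 replicate 3 (1.92). Between genotypes, no Ikzf1 region was called. A cluster of neighbouring intronic regions 34477 to 35458 bp downstream was more open in SKG iNKT2 by less than 4-fold. Its strongest region, at 34970 bp, gave 9.71 and 10.1 CPM in BALB/c iNKT1, 21.7 and 20.3 CPM in SKG iNKT1, 7.21, 13.3 and 9.19 CPM in BALB/c iNKT2 and 14.9, 20.8 and 20.9 CPM in SKG iNKT2. SKG was above BALB/c in both subsets there, with 0.92 ± 0.20 in iNKT2 (adjusted p = 0.0034) and 1.08 ± 0.25 in iNKT1, which did not pass (adjusted p = 0.019). Its neighbour at 35458 bp had the smallest adjusted p of the locus between genotypes in iNKT2, with 1.82, 1.69 and 2.64 CPM in BALB/c and 4.01, 5.19 and 4.25 CPM in SKG (1.14 ± 0.24, adjusted p = 0.0028).

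Aiolos and Ikaros are close relatives, and at Ikzf3 (chr11:98464902-98546031, minus strand) the subset differences again lay mostly in introns. Of all 40 Ikzf3 regions, 22 were intronic. The intronic region 73664 bp downstream (chr11:98472207-98472528) gave 12.5 and 9.39 CPM in BALB/c iNKT1, 11.4 and 10.7 CPM in SKG iNKT1, 0.972, 0.661 and 0.247 CPM in BALB/c iNKT2 and 1.49, 0.689 and 0.674 CPM in SKG iNKT2. It was open in iNKT1 and nearly closed in iNKT2 whatever the genotype (-4.07 ± 0.35 in BALB/c, adjusted p = 2.0e-07, and -3.44 ± 0.35 in SKG, adjusted p = 1.3e-06). Its neighbour at 73180 bp fell in the same way, by 2.95 and 2.75 on the log2 scale. The region at 35741 bp, shown above, behaved differently, with 34.0 and 29.4 CPM in BALB/c iNKT1, 30.9 and 33.2 CPM in SKG iNKT1, 6.90, 6.61 and 5.65 CPM in BALB/c iNKT2 and 18.0, 11.1 and 10.8 CPM in SKG iNKT2. Its iNKT1 groups overlapped, and SKG iNKT2 stood between them and BALB/c iNKT2. The fall was -2.31 ± 0.20 in BALB/c (adjusted p = 1.8e-07) and -1.25 ± 0.20 in SKG (adjusted p = 8.5e-05), and the difference between these changes, the interaction, was 1.06 ± 0.28 (adjusted p = 0.049), which does not pass 0.01.

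Of the Ikzf3 regions higher in iNKT2, the exonic region 56949 bp downstream gave 0.538 and 0.617 CPM in BALB/c iNKT1, 0.257 and 0.385 CPM in SKG iNKT1, 3.61, 2.86 and 2.64 CPM in BALB/c iNKT2 and 6.24, 1.70 and 2.97 CPM in SKG iNKT2. It rose in BALB/c (2.40 ± 0.48, adjusted p = 4.6e-04) and in SKG (3.52 ± 0.59, adjusted p = 1.4e-04), and the BALB/c call was lost without BALB/c iNKT1 replicate 1 (adjusted p = 0.014) and with limma after quantile normalisation (adjusted p = 0.012). The SKG call was lost with limma, with or without quantile normalisation (adjusted p = 0.016 each). The intronic region at 58238 bp was called in SKG, where it rose from 2.89 and 4.88 CPM to 26.3, 16.6 and 18.6 CPM (2.40 ± 0.27, adjusted p = 2.6e-06), while in BALB/c it gave 6.93 and 7.27 CPM against 12.0, 11.6 and 8.95 CPM (0.62 ± 0.23, adjusted p = 0.032). The interaction of this region was 1.79 ± 0.35 with an adjusted p of 0.010, at the edge of the threshold and not under it. The start of Ikzf3 gave 14.7 and 12.6 CPM in BALB/c iNKT1, 15.3 and 14.4 CPM in SKG iNKT1, 12.0, 8.02 and 7.13 CPM in BALB/c iNKT2 and 22.7, 14.8 and 14.0 CPM in SKG iNKT2. SKG iNKT2 was above BALB/c iNKT2 at the start (0.93 ± 0.21, adjusted p = 0.0046), and no comparison of subsets passed there. The region at 75823 bp had the smallest adjusted p of the locus in that comparison, with 30.2, 33.4 and 28.7 CPM in BALB/c iNKT2 against 52.0, 47.2 and 51.2 CPM in SKG iNKT2 (0.70 ± 0.11, adjusted p = 3.0e-04).

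Eos has the shortest locus of the family (Ikzf4, chr10:128630843-128645991, minus strand). Of its 15 regions only 3 overlapped the gene body, and 3 held the starts of its neighbours Rps26, Suox and Rab5b. By position 7 were exonic, 6 intergenic and 2 intronic, counting exons and introns of any protein-coding gene. In the Ikzf4 intron 8721 bp downstream, the libraries gave 9.80 and 10.4 CPM in BALB/c iNKT1, 7.32 and 7.44 CPM in SKG iNKT1, 24.2, 31.0 and 23.3 CPM in BALB/c iNKT2 and 38.8, 36.8 and 46.5 CPM in SKG iNKT2. The iNKT2 groups were above the iNKT1 groups, and SKG iNKT2 was the highest. The rise was 1.38 ± 0.17 in BALB/c (adjusted p = 4.9e-06, under 4-fold) and 2.46 ± 0.18 in SKG (adjusted p = 6.2e-08, called), with an interaction of 1.08 ± 0.24 (adjusted p = 0.020). The intergenic region 17835 bp upstream, shown above, went the other way, with 10.2 and 10.4 CPM in BALB/c iNKT1, 16.2 and 17.0 CPM in SKG iNKT1, 4.01, 4.92 and 4.49 CPM in BALB/c iNKT2 and 2.82, 2.62 and 3.24 CPM in SKG iNKT2. It fell by 1.20 on the log2 scale in BALB/c (adjusted p = 3.2e-05) and by 2.53 in SKG (adjusted p = 6.0e-08), with an interaction of -1.33 ± 0.26 (adjusted p = 0.011). Between genotypes in iNKT1 it differed by 0.69 ± 0.19, which did not pass (adjusted p = 0.051). The start of Ikzf4, shared with Gm26876, was more open in SKG iNKT2 at 11.9, 11.6 and 13.7 CPM than in BALB/c iNKT2 at 5.61, 7.04 and 8.12 CPM (0.84 ± 0.18, adjusted p = 0.0026).

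**Figure D2:**
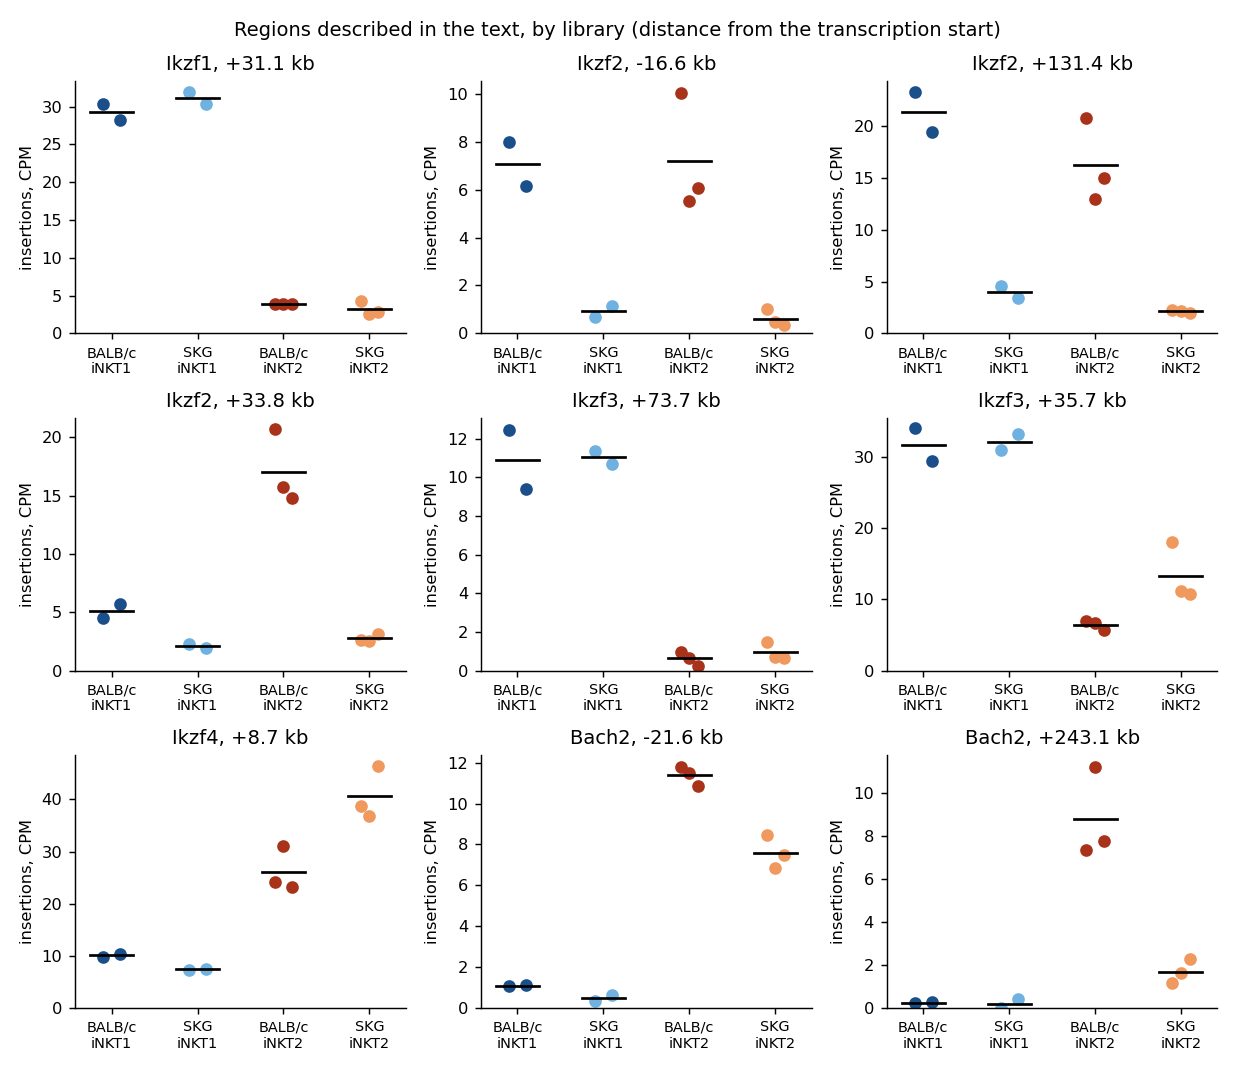
Accessibility of 9 regions in each library (y axis, CPM after TMM scaling, starting at 0), by group (x axis), with distance from the transcription start in each title. Points are libraries and bars the group means. The Ikzf1 region and the Ikzf3 region 73664 bp downstream separate the subsets, the Ikzf2 regions 16622 bp upstream and 131444 bp downstream separate the genotypes, and the Bach2 region 243078 bp downstream has its highest mean in BALB/c iNKT2.

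Between genotypes the members split by gene. In iNKT1, 0 regions were called higher in SKG (0.281% of all regions) and 3 lower (1.40% against 0.732%), 2 at Ikzf2 and 1 at Ikzf3, and without the size limit 0 were higher (0.662%) and 5 lower (2.33% against 1.42%). The count of 3 fell to 1 without BALB/c iNKT1 replicate 1, SKG iNKT1 replicate 1 or SKG iNKT1 replicate 2, and rose to 5 without BALB/c iNKT2 replicate 1. At an unadjusted p under 0.05, 56 of the 215 regions differed in iNKT1, a larger share than the 17.1% of all regions. The excess was not shared by all genes, with 24 of 51 at Bach2 and 15 of 35 at Ikzf2. The others had 8 of 40 at Ikzf3, 4 of 57 at Ikzf1, 3 of 17 at Bcl6 and 2 of 15 at Ikzf4. DESeq2 and limma called 0 higher in iNKT1 as well. In iNKT2, 0 were called higher (0.252% of all regions) and 8 lower (3.72% against 4.73%), 5 at Ikzf2 and 3 at Bach2. At an unadjusted p under 0.05, 100 of the 215 differed in iNKT2, a larger share than the 37.5% of all regions. They were 23 of 35 at Ikzf2, 23 of 51 at Bach2 and 12 of 17 at Bcl6. Ikzf4 had 8 of 15, Ikzf3 15 of 40 and Ikzf1 19 of 57. DESeq2 called 0 higher in iNKT2, limma 0 and limma after quantile normalisation 1. Without the size limit 21 were higher (9.77% against 4.02%) and 25 lower (11.6% against 10.1%). The 21 higher regions were spread over Ikzf3 with 7, Bcl6 with 6, Ikzf1 and Bach2 with 3 each and Ikzf4 with 2, whereas Ikzf2 held 16 of the 25 lower regions, Bach2 8 and Bcl6 1. The count of 21 was 7 to 18 with 1 library left out. Leaving out BALB/c iNKT1 replicate 1 gave 12, and leaving out BALB/c iNKT2 gave 9 (replicate 2) or 7 (replicate 3). Leaving out SKG iNKT2 gave 13 (replicate 2) or 11 (replicate 3). It was 8 with library totals, which gave 30 lower, and 31 when iNKT2 libraries of the same replicate number were paired, so the number of these smaller rises depends on the setting.

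Helios showed the clearest difference between genotypes. At Ikzf2 (chr1:69531214-69687245, minus strand) all 35 regions had a lower estimate in SKG iNKT1 and 31 of 35 in SKG iNKT2, with median log2 differences of -0.81 and -0.87, against -0.03 and 0.01 over all regions. The medians stayed negative under each scaling tried. In iNKT1 this one-sided fall was not particular to Ikzf2, since 47 of 51 Bach2 regions were lower in SKG (median -0.65). In iNKT2 25 of the 51 Bach2 regions were lower (median 0.01). The intergenic region 16622 bp upstream (chr1:69703541-69704194) gave 7.97 and 6.13 CPM in BALB/c iNKT1, 10.0, 5.50 and 6.06 CPM in BALB/c iNKT2, 0.707 and 1.15 CPM in SKG iNKT1 and 1.04, 0.459 and 0.337 CPM in SKG iNKT2. Each SKG library was below each BALB/c library, in iNKT1 by -2.92 ± 0.44 (adjusted p = 9.7e-04) and in iNKT2 by -3.40 ± 0.35 (adjusted p = 6.8e-06), while the subsets did not differ beyond their spread in either genotype (BALB/c 0.03 ± 0.31, SKG -0.46 ± 0.50). In iNKT1 this call was lost without BALB/c iNKT1 replicate 1 (adjusted p = 0.022), SKG iNKT1 replicate 1 (adjusted p = 0.039) or SKG iNKT1 replicate 2 (adjusted p = 0.015), and with limma after quantile normalisation (adjusted p = 0.019). The intronic region 131444 bp downstream (chr1:69555473-69556129) gave 23.3 and 19.4 CPM in BALB/c iNKT1, 20.8, 13.0 and 15.0 CPM in BALB/c iNKT2, 4.63 and 3.40 CPM in SKG iNKT1 and 2.29, 2.20 and 2.02 CPM in SKG iNKT2. It was lower in SKG in iNKT1 (-2.41 ± 0.25, adjusted p = 5.4e-05) and in iNKT2 (-2.89 ± 0.21, adjusted p = 3.7e-07), and both calls held under every alternative tried.

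Further intronic regions of Ikzf2 were higher in BALB/c iNKT2 than in the other groups. The region 33750 bp downstream gave 4.51 and 5.69 CPM in BALB/c iNKT1 and 20.7, 15.7 and 14.8 CPM in BALB/c iNKT2, but 2.31 and 1.92 CPM in SKG iNKT1 and 2.59, 2.57 and 3.10 CPM in SKG iNKT2. It was high in BALB/c iNKT2 and low in the other groups. The BALB/c subsets differed by 1.75 ± 0.21 (adjusted p = 4.9e-06), the SKG subsets by 0.36 ± 0.26 (adjusted p = 0.26) and the genotypes in iNKT2 by -2.64 ± 0.20 (adjusted p = 4.5e-07), and these comparisons share libraries. The interaction was -1.39 ± 0.33 (adjusted p = 0.030). The region at 17041 bp had the same order, with 3.52 and 3.22 CPM in BALB/c iNKT1, 0.899 and 2.57 CPM in SKG iNKT1, 11.2, 8.86 and 9.32 CPM in BALB/c iNKT2 and 1.75, 1.65 and 2.70 CPM in SKG iNKT2 (genotypes in iNKT2, -2.30 ± 0.28, adjusted p = 2.7e-05). At 43195 bp the values were lower, 0.269 and 0.176 CPM in BALB/c iNKT1, 0.128 in both SKG iNKT1 libraries, 2.20, 3.89 and 3.17 CPM in BALB/c iNKT2 and 0.594, 0.735 and 0.270 CPM in SKG iNKT2. That region rose in BALB/c iNKT2 (3.73 ± 0.47, adjusted p = 6.5e-06) and was lower in SKG iNKT2 (-2.46 ± 0.36, adjusted p = 1.5e-04), and the filter on low counts removed it.

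Other Ikzf2 regions kept their subset difference or did not move. The intronic region 42193 bp downstream rose in iNKT2 of both genotypes, from 1.52 and 1.01 CPM to 8.28, 8.86 and 7.54 CPM in BALB/c (2.67 ± 0.28, adjusted p = 1.2e-06) and from 0.385 and 0.834 CPM to 4.55, 3.90 and 5.73 CPM in SKG (2.93 ± 0.35, adjusted p = 5.5e-06). An exonic region near the end of the gene, 149255 bp downstream, gave 26.5 and 27.8 CPM in BALB/c iNKT1, 11.3 and 9.69 CPM in SKG iNKT1, 14.3, 13.6 and 15.1 CPM in BALB/c iNKT2 and 5.59, 5.56 and 5.46 CPM in SKG iNKT2. Accessibility there was lower in iNKT2 than in iNKT1 and lower in SKG than in BALB/c, each by less than 4-fold, with a difference between genotypes of -1.37 ± 0.17 in iNKT1 (adjusted p = 2.4e-04) and -1.37 ± 0.14 in iNKT2 (adjusted p = 7.5e-06). The start of Ikzf2 gave 77.5 and 88.9 CPM in BALB/c iNKT1, 77.5 in both SKG iNKT1 libraries, 61.2, 68.1 and 78.0 CPM in BALB/c iNKT2 and 57.3, 90.9 and 81.8 CPM in SKG iNKT2. No comparison passed at the start, where SKG and BALB/c differed by -0.10 ± 0.19 in iNKT1 and 0.15 ± 0.15 in iNKT2, and the called falls in SKG lay away from it.

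**Figure D3:**
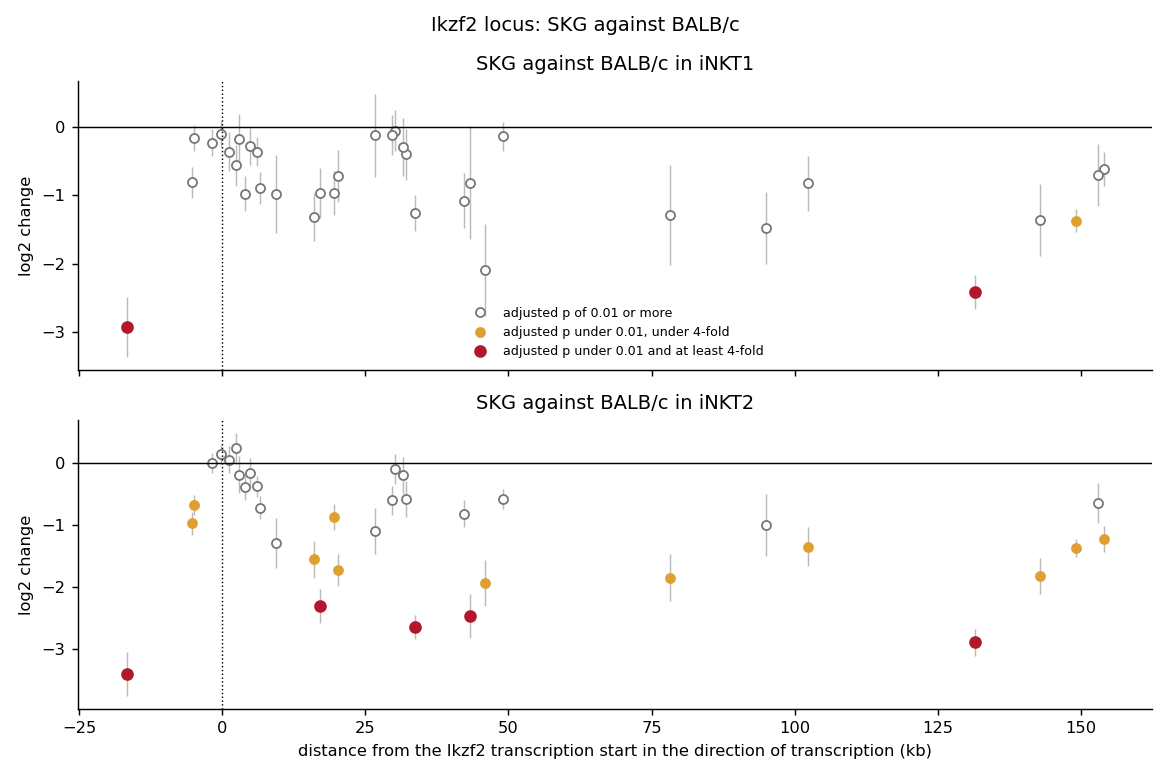
Log2 change of SKG against BALB/c (y axis) at the 35 Ikzf2 regions by distance from the transcription start (x axis, kb) in iNKT1 (top) and iNKT2 (bottom). Bars are standard errors, and colour gives the outcome of edgeR's test. Estimates near the start lie close to 0, and the called falls stand 16622 bp upstream and in the gene body.

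Bach2 (chr4:32238804-32586108, plus strand) is the longest of these genes. In BALB/c its regions within 150 kb downstream of the start and those beyond moved in opposite directions between subsets when summed. Divided at 150 kb from the start, a limit chosen after the values were seen, 4 regions lay upstream, 33 within the limit and 14 beyond it. The 33 regions within the limit summed to 711 and 801 CPM in BALB/c iNKT1, 561 and 591 CPM in SKG iNKT1, 397, 478 and 465 CPM in BALB/c iNKT2 and 502, 532 and 578 CPM in SKG iNKT2. The 14 regions beyond it summed to 15.0 and 15.5 CPM in BALB/c iNKT1, 7.52 and 8.40 CPM in SKG iNKT1, 57.3, 76.7 and 69.7 CPM in BALB/c iNKT2 and 33.0, 37.1 and 41.7 CPM in SKG iNKT2. The near part was thus highest in BALB/c iNKT1 and the far part highest in BALB/c iNKT2. The 4 upstream regions went with the far part, with a mean sum of 31.7 CPM in BALB/c iNKT2 and 7.66 CPM in BALB/c iNKT1. In the far part BALB/c iNKT2 was 4.45 times BALB/c iNKT1, and SKG iNKT2 was 4.68 times SKG iNKT1. SKG was lower than BALB/c there in both subsets, at 0.522 times in iNKT1 and 0.549 times in iNKT2. Among the calls in BALB/c, 9 regions beyond the limit and 2 upstream were higher in iNKT2 and 1 was lower, while within the limit 1 was higher and 4 were lower. In SKG, 7 regions beyond the limit, 2 upstream and 3 within it were called higher and 0 lower, and the summed near part of SKG iNKT2 was 0.933 times that of SKG iNKT1.

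Of the far and upstream regions, the intergenic region 21605 bp upstream (chr4:32217035-32217363) gave 1.05 and 1.10 CPM in BALB/c iNKT1, 0.321 and 0.642 CPM in SKG iNKT1, 11.8, 11.5 and 10.9 CPM in BALB/c iNKT2 and 8.47, 6.84 and 7.48 CPM in SKG iNKT2. It was nearly closed in iNKT1 and open in iNKT2 of both genotypes (3.41 ± 0.24 in BALB/c, adjusted p = 3.3e-08, and 3.97 ± 0.30 in SKG, adjusted p = 7.4e-08). The intronic region 321637 bp downstream gave 2.27 and 1.37 CPM in BALB/c iNKT1, 0.321 and 1.35 CPM in SKG iNKT1, 14.9, 19.8 and 19.5 CPM in BALB/c iNKT2 and 13.9, 14.9 and 17.4 CPM in SKG iNKT2. Its rise was 3.28 ± 0.31 in BALB/c (adjusted p = 4.3e-07) and 4.19 ± 0.37 in SKG (adjusted p = 3.3e-07), and the iNKT2 groups overlapped. These regions opened with the subset and were not called between genotypes, whereas others were. At 21605 bp upstream, however, each SKG library lay below each BALB/c library of the same subset.

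The largest rise of a Bach2 region between BALB/c subsets was in the intron 243078 bp downstream (chr4:32481621-32482143), from 0.209 and 0.264 CPM in iNKT1 to 7.34, 11.2 and 7.79 CPM in iNKT2 (5.21 ± 0.48, adjusted p = 3.6e-07). In SKG the same region gave 0 and 0.385 CPM in iNKT1 and 1.16, 1.61 and 2.29 CPM in iNKT2 (3.04 ± 0.64, adjusted p = 9.7e-04), a call lost without SKG iNKT1 replicate 1 (adjusted p = 0.017), with limma (adjusted p = 0.021) and with limma after quantile normalisation (adjusted p = 0.040). SKG iNKT2 was lower than BALB/c iNKT2 (-2.44 ± 0.32, adjusted p = 6.4e-05), and no interaction was detectable at counts of 0 to 7 per iNKT1 library (-2.17 ± 1.04, adjusted p = 0.26). In a cluster from 185053 to 187975 bp downstream, all 5 neighbouring regions were lower in SKG iNKT2 at an adjusted p under 0.01. The region of that cluster shown above, at 187975 bp, gave 1.25 and 1.19 CPM in BALB/c iNKT1, 0.321 and 0.257 CPM in SKG iNKT1, 5.68, 10.6 and 8.12 CPM in BALB/c iNKT2 and 1.28, 0.964 and 1.55 CPM in SKG iNKT2. SKG iNKT2 libraries lay at the level of BALB/c iNKT1 there (genotypes in iNKT2, -2.70 ± 0.27, adjusted p = 4.7e-06, and BALB/c subsets, 2.73 ± 0.31, adjusted p = 2.2e-06), and its rise in SKG was 2.09 ± 0.48 (adjusted p = 0.0021). That rise was no longer called without SKG iNKT1 replicate 1 (adjusted p = 0.018), SKG iNKT1 replicate 2 (adjusted p = 0.028) or SKG iNKT2 replicate 3 (1.96, under 4-fold), nor with limma (1.96, adjusted p = 0.073) or limma after quantile normalisation (1.12, adjusted p = 0.23).

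In the near part, the intronic region 105305 bp downstream gave 44.1 and 54.4 CPM in BALB/c iNKT1, 35.5 and 39.6 CPM in SKG iNKT1, 8.78, 9.68 and 8.04 CPM in BALB/c iNKT2 and 20.6, 12.7 and 12.0 CPM in SKG iNKT2. It was lower in iNKT2 in BALB/c (-2.47 ± 0.20, adjusted p = 1.0e-07) and in SKG (-1.30 ± 0.20, adjusted p = 6.7e-05), and SKG iNKT2 was above BALB/c iNKT2 (0.78 ± 0.19, adjusted p = 0.0060). The broad intronic region 12046 bp downstream had the highest level of the locus in BALB/c iNKT1, with 153 and 181 CPM there, 121 and 118 CPM in SKG iNKT1, 66.2, 78.9 and 78.9 CPM in BALB/c iNKT2 and 85.6, 84.5 and 101 CPM in SKG iNKT2. Its fall in BALB/c iNKT2 was -1.16 ± 0.13 (adjusted p = 2.7e-06) and in SKG -0.40 ± 0.13, which did not pass (adjusted p = 0.021). In SKG iNKT1, the region at 24331 bp was lower than in BALB/c iNKT1, with 8.09 and 9.56 CPM against 17.1 and 17.5 CPM (-0.97 ± 0.19, adjusted p = 0.0068). The start of Bach2 gave 132 and 135 CPM in BALB/c iNKT1, 119 in both SKG iNKT1 libraries, 87.0, 106 and 113 CPM in BALB/c iNKT2 and 106, 135 and 134 CPM in SKG iNKT2, and no comparison there passed 0.01. Accessibility at the start thus changed little while regions on either side of it moved by large factors.

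**Figure D4:**
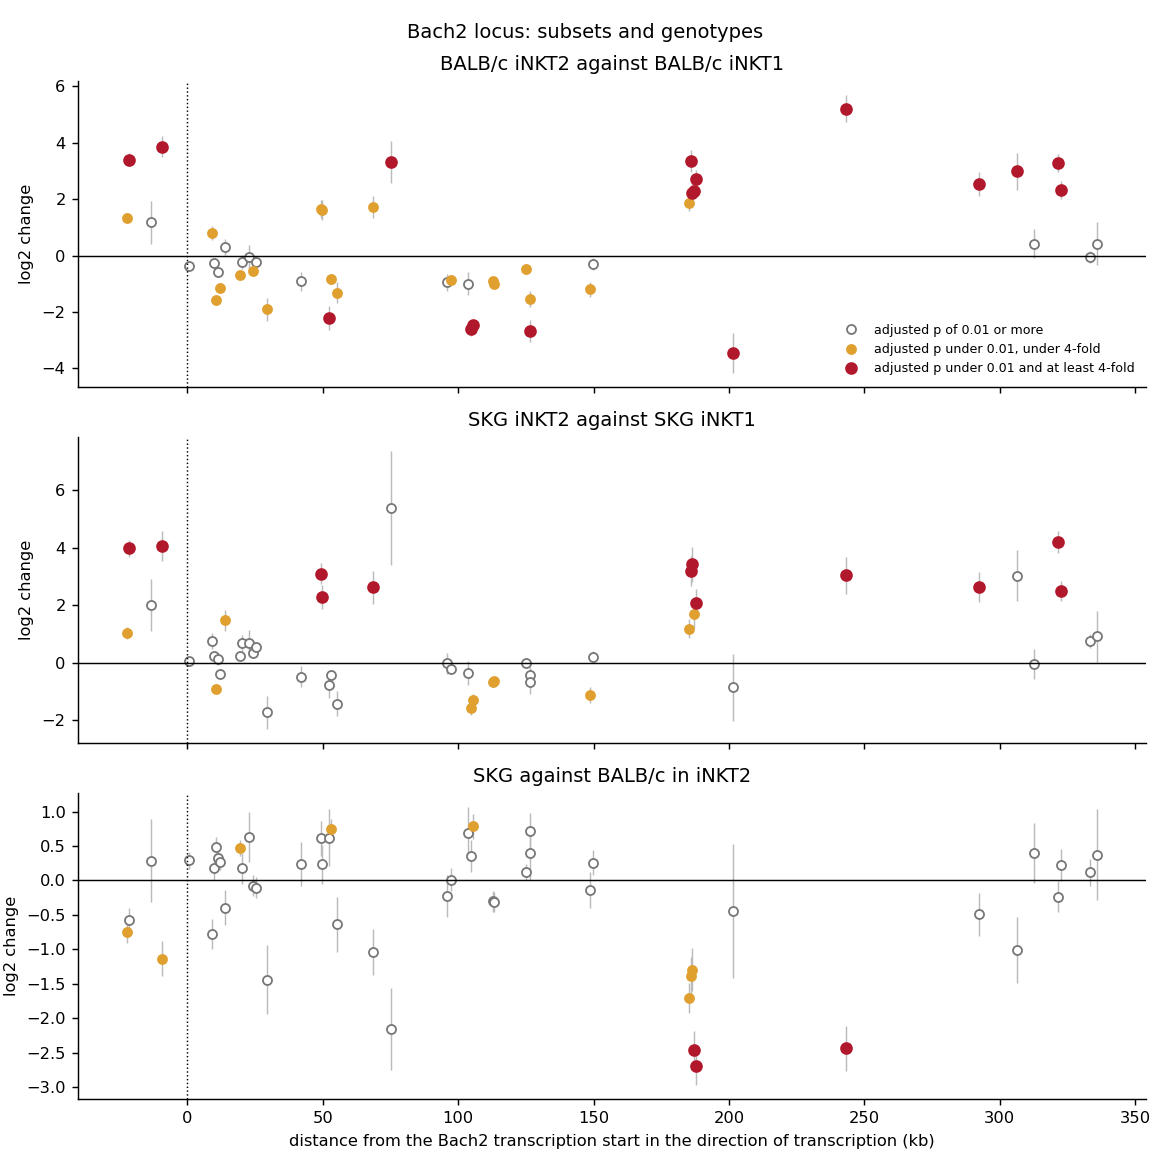
Log2 change (y axis) at the 51 Bach2 regions by distance from the transcription start (x axis, kb) for iNKT2 against iNKT1 in BALB/c (top) and SKG (middle), and between genotypes in iNKT2 as SKG minus BALB/c (bottom). Bars are standard errors, and colour gives the outcome of edgeR's test. Most called rises in iNKT2 lie upstream or beyond 150 kb. Most called falls in BALB/c iNKT2 lie within 150 kb downstream, and the called falls in SKG iNKT2 lie beyond 150 kb.

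At Bcl6 (chr16:23965052-23988852, minus strand) the region at the transcription start gave 87.2 and 81.9 CPM in BALB/c iNKT1, 97.1 and 86.9 CPM in SKG iNKT1, 43.8, 49.1 and 48.7 CPM in BALB/c iNKT2 and 68.1, 70.3 and 71.5 CPM in SKG iNKT2. The iNKT1 groups overlapped, BALB/c iNKT2 was lowest and SKG iNKT2 lay between. The fall in BALB/c iNKT2 was -0.84 ± 0.12 (adjusted p = 2.0e-05), that in SKG -0.39 ± 0.12 (adjusted p = 0.012), and SKG iNKT2 was above BALB/c iNKT2 by 0.57 ± 0.11 (adjusted p = 0.0013), each under 4-fold. This region also holds the start of Gm37419. The intronic regions behind the start followed the same order. The strongest, 3843 bp downstream, gave 42.8 and 45.0 CPM in BALB/c iNKT1, 43.5 and 39.0 CPM in SKG iNKT1, 16.2, 18.7 and 15.4 CPM in BALB/c iNKT2 and 23.4, 33.3 and 29.9 CPM in SKG iNKT2. It fell in BALB/c iNKT2 by 1.39 on the log2 scale (adjusted p = 1.9e-06), and SKG iNKT2 was higher by 0.78 ± 0.14 (adjusted p = 8.9e-04) with an interaction of 0.87 ± 0.22 (adjusted p = 0.039). All 6 Bcl6 regions that were higher in SKG iNKT2 at an adjusted p under 0.01 lay at the start or within 4473 bp downstream of it. The count of these smaller rises was among those that moved with the setting, as given above for all members.

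Upstream of Bcl6 the signal was weak and ran the other way. The region 4964 bp upstream gave 3.20 and 2.16 CPM in BALB/c iNKT1, 0.771 and 0.449 CPM in SKG iNKT1, 8.31, 5.48 and 5.11 CPM in BALB/c iNKT2 and 3.48, 1.65 and 2.36 CPM in SKG iNKT2. It rose in iNKT2 in BALB/c (1.22 ± 0.32, adjusted p = 0.0037) and, as a call, in SKG (2.05 ± 0.45, adjusted p = 0.0013), and was lower in SKG than in BALB/c iNKT2 (-1.31 ± 0.28, adjusted p = 0.0034). In iNKT1 the difference between genotypes was -2.14 ± 0.46 and did not pass (adjusted p = 0.013). The SKG call was lost without SKG iNKT1 replicate 2 (adjusted p = 0.030) or SKG iNKT2 replicate 1 (1.69, under 4-fold), with limma (adjusted p = 0.026) and after quantile normalisation (adjusted p = 0.048), and DESeq2 gave it just under 4-fold. The regions called higher in BALB/c iNKT2 were those 8547, 19355 and 33132 bp upstream, with few counts. At 8547 bp the counts were 5 and 0 in BALB/c iNKT1 and 82, 90 and 49 in BALB/c iNKT2 (4.67 ± 0.63, adjusted p = 1.4e-05), against 4 and 8 in SKG iNKT1 and 33, 11 and 17 in SKG iNKT2. At 33132 bp a single count in BALB/c iNKT1 stood against 61, 42 and 20 in BALB/c iNKT2 (adjusted p = 1.0e-04), a ratio of 73.5 with an exact 95% interval from 13.0 to 2928 that covers counting error only. The call at 19355 bp was lost without BALB/c iNKT1 replicate 1 (adjusted p = 0.092), BALB/c iNKT2 replicate 1 or BALB/c iNKT2 replicate 2 (adjusted p = 0.011 each) and with limma after quantile normalisation (adjusted p = 0.067), and a filter on low counts removed all 3 of these regions.

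**Figure D5:**
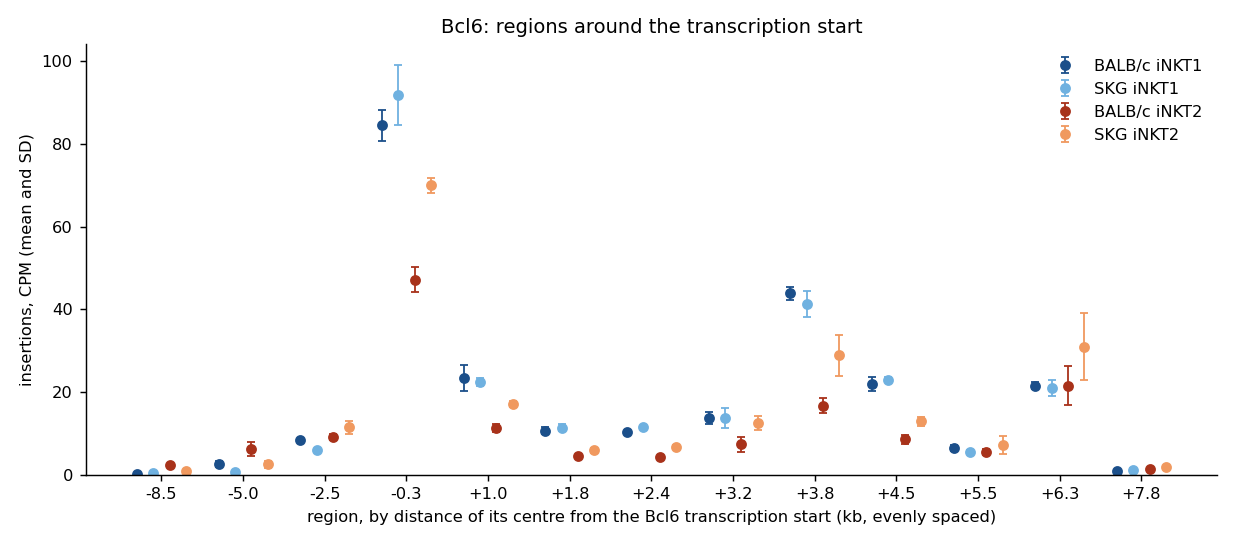
Accessibility of the Bcl6 regions within 9 kb of the transcription start (x axis, evenly spaced and labelled by distance in kb) as mean and SD of CPM after TMM scaling (y axis), with n = 2 for the iNKT1 groups and n = 3 for the iNKT2 groups. BALB/c iNKT2 lies below the other groups from the start to 4473 bp downstream, and SKG iNKT2 lies between it and the iNKT1 groups at most of these regions.

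Whether the genotype changed the difference between subsets was tested by the interaction. No member region was called by edgeR in either direction, against 0.189% of all regions higher and 0.341% lower. An unadjusted p under 0.05 was found in 55 of the 215, a larger share than the 19.8% of all regions. They were 18 of 51 at Bach2, 16 of 40 at Ikzf3 and 8 of 17 at Bcl6. Ikzf1 had 8 of 57, Ikzf2 3 of 35 and Ikzf4 2 of 15. DESeq2 called 1 region with a positive interaction and 0 with a negative one, and limma called 0. At an adjusted p under 0.05 and with no size limit, 14 member regions passed in edgeR's fit, 11 positive (5.12% against 1.97% of all regions) and 3 negative (1.40% against 2.17%). Ikzf3 held 6 of them, all positive, Bach2 3, all positive, Ikzf4 and Bcl6 2 each with 1 in either direction, Ikzf2 1, negative, and Ikzf1 none. Among those at Ikzf3 was the intergenic region 50082 bp upstream, at the edge of the window. It gave 4.18 and 3.83 CPM in BALB/c iNKT1, 0.321 and 0.0642 CPM in SKG iNKT1, 1.51, 1.40 and 1.98 CPM in BALB/c iNKT2 and 1.16, 0.781 and 0.202 CPM in SKG iNKT2. This was the Ikzf3 region called lower in SKG iNKT1 (-4.35 ± 0.63, adjusted p = 8.1e-04), where 5 and 1 counts stood against 140 and 87. That call was lost without BALB/c iNKT1 replicate 1, SKG iNKT1 replicate 1 or SKG iNKT1 replicate 2, at adjusted p of 0.011 to 0.026, and with limma, with or without quantile normalisation (adjusted p = 0.014 each).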

How the data were processed

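ATAC-seq libraries of iNKT1 and iNKT2 thymocytes of both strains (BALB/c, SKG) were analysed from the table the authors deposited, which holds counts of transposase insertions per region. The table was deposited under a name that speaks of normalised counts, but its values are whole numbers with totals that differ between libraries, so they were treated as raw counts, and the count tests and exact intervals rest on this. Per the labels and the study's methods, reads were mapped to mm10 with Bowtie 1.0, Trim Galore was used on unmapped reads, duplicates (Picard) and mitochondrial reads were removed and peaks were called with MACS2. Regions were 300 to 7709 bp wide (median 343). The members and lists used here were chosen with earlier results of these data known.

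Counts were TMM-scaled and fitted by edgeR 4.0.16 (quasi-likelihood test, R 4.3.3) with 1 mean per group over the 10 libraries and no low-count filter, with Benjamini-Hochberg adjustment over 94823 regions. Tested on simulated counts, the steps recovered the changed regions. Those changes were larger than 4-fold, left out the regions of lowest level and used the same spread for all regions. Calls near 4-fold or at low counts were therefore not tested by it. Alternatives used DESeq2 1.42.0, limma 3.58.1, library totals, a low-count filter, other thresholds and windows, and each library left out. Genes came from GENCODE M21 and sequence from RefSeq GRCm38. Named regions were, per gene, the region at the start and, per comparison, the called region with the largest change or else the smallest adjusted p, and other regions were chosen after their values were seen. Some genes of the marker lists are not reported here. Deviations from group means correlated at 0.136 to 0.446 between iNKT2 libraries of the same replicate number, at -0.329 to 0.207 between those of different numbers and at -0.0179 to 0.0943 in the other same-numbered pairs. The labels do not pair libraries, and only the replicate 1 libraries of iNKT2 (0.446) correlated above all those of different numbers. The fit given has no replicate block, and the block on same-numbered iNKT2 libraries is an alternative.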

Additional observations from a re-analysis of the deposited data

How the results depend on the processing

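Of the called member regions, 18 of 40 kept their call under every alternative between subsets in BALB/c, 14 of 27 in SKG, 1 of 3 between genotypes in iNKT1 and 7 of 8 in iNKT2, and no named region reversed. The 22 regions called higher and 18 lower in BALB/c iNKT2 became 12 higher and 27 lower with limma after quantile normalisation, 28 higher and 12 lower with library totals, 11 lower with the low-count filter, and 42 and 46 at an adjusted p under 0.05 and 2-fold. The 21 higher and 6 lower in SKG iNKT2 became 13 higher with limma, 9 higher and 8 lower with quantile normalisation, and 42 and 26 at the looser threshold. Between genotypes in iNKT1 the 3 lower regions became 1 with quantile normalisation, 1 within 10 kb of the start, 5 when 2 groups were fitted alone and 12 at the looser threshold, which gave 1 higher. In iNKT2 the 8 lower became 28 and the 0 higher became 4 at the looser threshold, and 1 with quantile normalisation. The interaction gave 1 positive call with DESeq2, and 6 positive and 3 negative at the looser threshold.

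Without the size limit, a count added after seeing the data, the SKG subsets gave 22 higher with limma and 25 lower with library totals. In iNKT1 the genotypes gave 1 higher with DESeq2, 2 with 2 groups alone and 1 with the replicate block, and 8 lower with DESeq2, 3 with quantile normalisation, 20 with 2 groups alone and 3 within 10 kb. In iNKT2 they gave 8 higher with library totals, 11 with the filter and 13 with 2 groups alone.

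With 1 library left out, calls ranged from 20 to 24 higher and 14 to 20 lower in BALB/c iNKT2, 16 to 24 and 6 to 8 in SKG iNKT2, 0 and 1 to 5 between genotypes in iNKT1, and 0 and 8 to 11 in iNKT2. Without the size limit they ranged from 32 to 42 and 46 to 75, 21 to 37 and 25 to 43, 0 to 1 and 1 to 9, and 7 to 18 and 17 to 29. With a replicate block that treats iNKT2 libraries of the same number as pairs, 9 regions were lower and 0 higher. Without the size limit this block gave 31 higher and 37 lower. The causes of these shifts were not tested. Regions with few counts limit the upstream Bcl6 and weaker Bach2 values, since the filter kept 180 of the 215.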

Other observations

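The protein-coding genes whose summed accessibility was most like each member over the 10 libraries are given by Pearson's r of log2 CPM, as a description over libraries that share their groups. For Ikzf1 this was Degs1 (0.998), for Ikzf3 Chd3 (0.990), for Bcl6 Stard10 (0.994), for Ikzf4 Btrc (0.955) and for Bach2 Pip4k2a (0.947). For Ikzf2 it was Neu4 (0.966), followed by Pdcd1 (0.961), which encodes the inhibitory receptor PD-1, with 356 and 226 CPM in BALB/c and SKG iNKT1 and 294 and 199 CPM in BALB/c and SKG iNKT2.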
